A study of Homo sapiens with 6 samples.

Results

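The genes described here encode actin, the non-muscle myosin that pulls on it, and the proteins that nucleate, cap, bundle and anchor actin filaments in stress fibers. They were taken by symbol from a fixed list of 47 names, and all 47 were found among the 62754 genes of the deposited table. The samples were HPNE-hTERT cells, an established, non-malignant human pancreatic line immortalized with telomerase (hTERT) and labelled as ductal epithelium. The FOLFIRINOX group received 5-fluorouracil at 10 µM, SN-38 at 25 nM and oxaliplatin at 5 µM for 4 days to bring on senescence, a lasting arrest of division, and the vehicle group received DMSO. SN-38 is what the body makes of irinotecan, a poison of topoisomerase I, while 5-fluorouracil blocks thymidylate synthesis and oxaliplatin crosslinks DNA. Both groups grew in the same medium with serum and EGF, and all libraries come from this 1 line. Polyadenylated RNA was sequenced from 3 libraries per group, named here by the P number of their columns (P14, P15 and P19, each once per group), a number that no label explains. The labels do not say whether these were separate cultures, and p-values here cover the spread among the libraries alone, which may be technical. Values are whole reads per gene times 1 factor per library, called normalized reads, and gene totals ran from 83981154 to 97762802 reads per library.

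Marker genes bore out the label of ductal epithelium only in part: some ductal markers were near 0, others were present, and mesenchymal ones were high. Of 8 ductal markers, EPCAM and CFTR stayed under 10 normalized reads in every library and KRT19 averaged 3.34 ± 1.15 in vehicle and 9.89 ± 7.13 in FOLFIRINOX. KRT18 was present at 9901 ± 905 and 7148 ± 363, and SOX9 at 1545 ± 236 and 791 ± 52.3. The list also held KRT7, KRT8 and CDH1, whose values are not given singly here. Mesenchymal markers were abundant, with VIM at 522537 ± 54996 and COL1A1 at 496766 ± 148407 normalized reads in vehicle cells (± SD, n = 3 here and below). The 8 mesenchymal markers summed to 3491771 to 5222914 reads in vehicle and 2521837 to 3067427 in FOLFIRINOX libraries. Of these 8, 6 were called lower by the test given below, and 8 with libraries paired by P number. The ductal markers summed to 11878 to 14335 and 8896 to 9869, and 2 of the 5 tested fell, or 4 with pairing. Over all genes tested, 12.2% fell, and 21.8% with pairing. The part of these marker shifts in the results below was not tested. Of the markers of mature smooth muscle, DES and MYH11 were at or near 0 (at most 10.3 reads for MYH11), SYNPO2 rose, ACTG2 and LMOD1 fell and MYOCD was not called. The 6 smooth muscle markers, with SYNPO2 the highest of them, summed to 12317 to 14968 reads in vehicle and 23105 to 26848 in FOLFIRINOX. Immune markers summed to at most 53.2 reads and endothelial markers to at most 44.6 in any library.

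Actin filaments assemble from monomers held ready by profilin and start at the Arp2/3 complex, which makes branches, or at formins, which do not. They are cut back by cofilin and destrin. Bundled with alpha-actinin, filamin and tropomyosin and pulled by non-muscle myosin II, they form stress fibers that end at focal adhesions. The monomer pool also feeds back on transcription: free actin holds the coactivator MRTFA in the cytoplasm, and its release lets MRTFA bind SRF, which activates many of the genes of this system through a DNA element called the CArG box.

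FOLFIRINOX-treated cells had fewer normalized reads of 17 of the 47 genes. Among them were both cytoplasmic actins (ACTB 1.82-fold and ACTG1 2.15-fold lower), profilin PFN1 (1.74-fold), the formin DIAPH3 (6.46-fold), transgelin TAGLN2 (1.90-fold) and zyxin (1.83-fold). The contractile marker CNN1 was 2.18-fold lower, and the kinase gene MYLK was 1.51-fold higher. The contractile markers ACTA2 and TAGLN, the tropomyosins TPM1 and TPM2 and 25 other members, CALD1 among them, were not called. A gene is called higher or lower when limma, fitted over the 17951 genes with at least 10 normalized reads in 3 or more libraries, gave a Benjamini-Hochberg adjusted p under 0.05. All 47 members passed that filter, 17 were called lower, 1 was called higher and 29 were not called. Among all genes tested, 12.2% were called lower and 11.4% higher. The median log2 difference (FOLFIRINOX minus vehicle, on log2 of normalized reads plus 1) was −0.35 over the members and 0.02 over all genes tested. With libraries paired by P number, since those of the same number deviated together, 28 members were lower and 4 higher, against 21.8% and 22.3% of all genes tested. Under common-total scaling, which moved the median of all tested genes from 0.02 to 0.13, 14 members were lower and 3 higher, against 9.46% lower and 15% higher over all genes tested. Under quantile normalization 13 were lower and 3 higher, against 11.3% lower and 12.3% higher. The groups did not overlap for 20 members lower in FOLFIRINOX and 3 higher, where all genes tested gave 19.6% and 19.9%, and they include all 18 called members. Fewer cells with a given RNA and less of that RNA per cell cannot be told apart in such bulk samples. Normalized reads are relative amounts within a library, and the total RNA per cell is not known here.

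Member genes together took 4.27%, 4.12% and 3.63% of all normalized reads in the vehicle libraries P14, P15 and P19, and 3.15%, 3.37% and 3.16% in the FOLFIRINOX libraries of the same names. The mean share was 4.01% ± 0.332 in vehicle and 3.23% ± 0.126 in FOLFIRINOX (SD, n = 3), and every FOLFIRINOX library was below every vehicle library. ACTB and ACTG1 alone took 1.28%, 1.29% and 0.996% in vehicle and 0.570%, 0.766% and 0.663% in FOLFIRINOX.

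The CArG box, the element that SRF binds, was looked for in RefSeq promoter windows (GRCh38.p14, 250 bases before to 50 after each start). It is 10 bases long, reads CC, then 6 bases that are each A or T, then GG, and is the same on both strands. Windows were held for 42 of the 47 members, 69 windows in all, and 7 members had a box in a window: ACTG1, ACTN1, CNN2, FLNA, MYLK, SRF and TPM4. That is 10.1% of the members' windows, against 1.29% of all 35116 windows of that length. SRF targets are known to be common among such genes, so no test was made of this share. Of these 7 genes, ACTG1, CNN2 and TPM4 fell, MYLK rose and ACTN1, FLNA and SRF were not called, and with pairing the last 3 were lower as well. Of the 35 members with a window and no box of this exact form, 13 fell and 0 rose, and 20 were lower with pairing. Over all genes tested, 12.2% fell and 11.4% rose, and with pairing 21.8% were lower and 22.3% higher. The median log2 difference was −0.51 with a box and −0.34 without. ACTB, PFN2, ARPC1B, MYL9 and TAGLN had no window in the table. The box of each of the 7 is printed with 15 bases on either side, on the gene's strand 5′ to 3′, with the box in capitals, because this element is what these windows share. The stretches are ACTG1 at chr17:81512869-81512908 on the minus strand, CNN2 at chr19:1026504-1026543 on the plus strand, TPM4 at chr19:16067350-16067389 on the plus strand, ACTN1 at chr14:68977713-68977752 on the minus strand, FLNA at chrX:154374704-154374743 on the minus strand, SRF at chr6:43171224-43171263 on the plus strand and MYLK at chr3:123620618-123620657 on the minus strand, and the boxes start 94, 89, 173, 171, 94, 30 and 94 bases before the start, in that order. SRF has a second box, 10 bases before its start. The MYLK window is at a start inside the gene, 264 kb from the 5′ end that GENCODE 29 gives, where 2 of its 10 coding transcripts begin, so its box is not at the start of the full-length kinase. Short transcripts from the 3′ end of MYLK are known to encode telokin, which lacks the kinase domain, and reads per gene do not tell the transcripts apart. The ACTG1 stretch lies 10.9 kb inside the annotated gene, whose 5′ end is set by a longer transcript, while 9 of 11 coding transcripts start in its window. The stretches of ACTN1 and TPM4 lie 1.69 and 0.329 kb inside their genes, and those of CNN2, FLNA and SRF lie upstream of the annotated gene. For ACTN1 and TPM4 alike, 2 of 14 coding transcripts start in the window that holds the box. For CNN2, FLNA and SRF, 5 of 10, 3 of 7 and 1 of 1 do.
ACTG1: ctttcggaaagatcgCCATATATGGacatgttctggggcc
CNN2: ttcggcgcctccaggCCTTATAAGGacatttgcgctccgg
TPM4: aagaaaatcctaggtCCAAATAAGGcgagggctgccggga
ACTN1: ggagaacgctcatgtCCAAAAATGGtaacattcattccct
FLNA: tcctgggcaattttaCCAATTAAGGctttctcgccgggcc
SRF: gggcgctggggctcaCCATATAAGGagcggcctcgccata
MYLK: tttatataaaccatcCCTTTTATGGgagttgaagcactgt

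A match is a description of these letters and says nothing of whether SRF was bound. Boxes outside these windows, and inexact forms of the box inside them, were not looked for. Members without a box here may therefore still hold an SRF element.

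**Figure D1:**
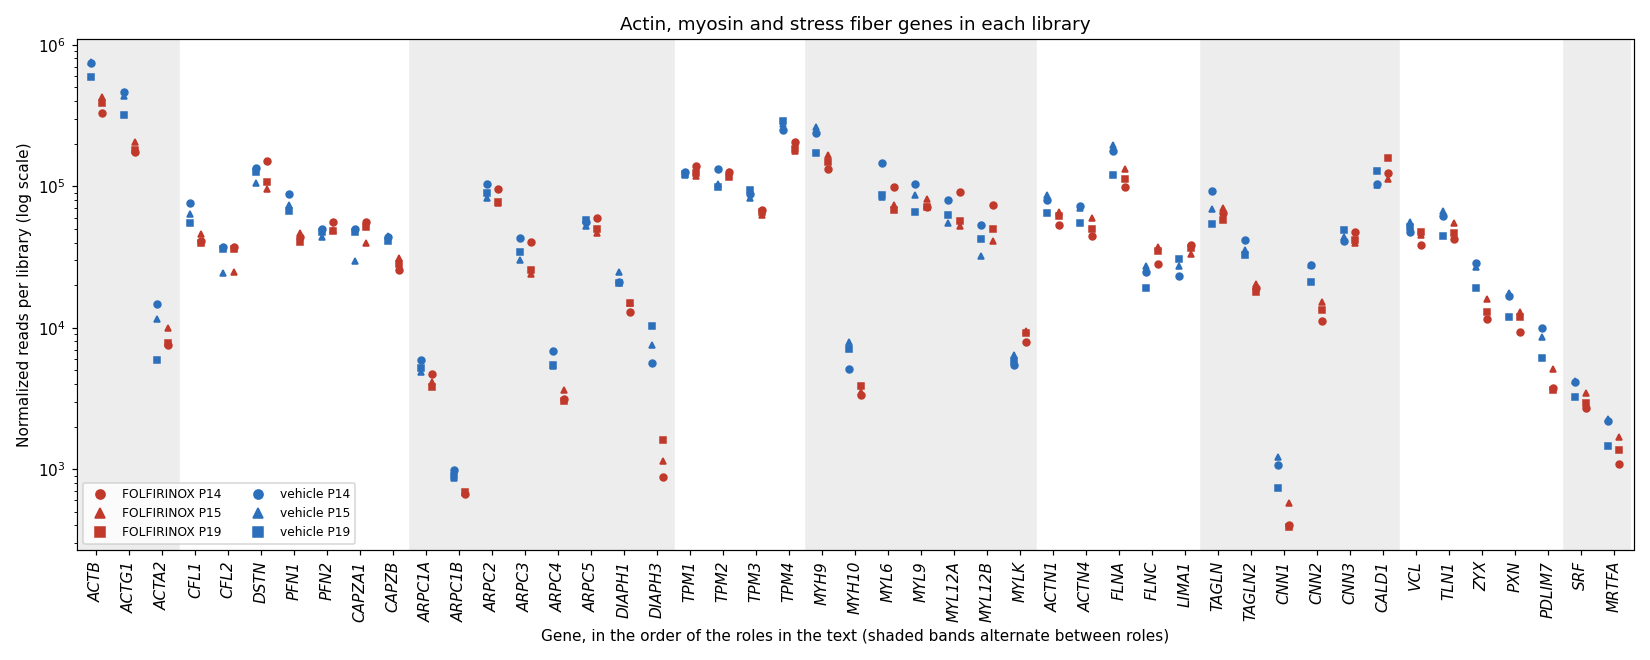
Normalized reads (y axis, log scale) of each of the 47 genes (x axis, ordered by role) in each library; blue points are vehicle, red points FOLFIRINOX, and the marker shape gives the P number. Vehicle points lie above FOLFIRINOX points for ACTB, ACTG1, PFN1 and DIAPH3, and below them for MYLK, FLNC and LIMA1.

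ACTB and ACTG1 encode the cytoplasmic beta and gamma actins that make up most filaments in non-muscle cells. ACTB (chromosome 7, 5527147 to 5563784 in GRCh38) had 748390.1, 754293 and 589066 normalized reads in vehicle libraries P14, P15 and P19, the order used throughout, and 331719, 426162 and 388976 in FOLFIRINOX (log2 difference −0.87 ± 0.17 SE, adjusted p = 0.0042, 1.82-fold lower). Every FOLFIRINOX library was below the lowest vehicle library, P19, and the call was lost with no filter on low values (adjusted p = 0.0750). ACTG1 (chromosome 17, 81509971 to 81523847) had 466470.3, 432845 and 320546 reads in vehicle and 174674, 206598 and 180938 in FOLFIRINOX (log2 difference −1.10 ± 0.18 SE, adjusted p = 0.0013, 2.15-fold lower), again with no overlap. Both actins were lower in all 3 P numbers. The ACTG1 to ACTB log2 ratio within a library was −0.68, −0.80 and −0.88 in vehicle and −0.93, −1.04 and −1.10 in FOLFIRINOX. ACTA2, the smooth muscle alpha actin that marks contractile cells, had 14741, 11461 and 5935 reads in vehicle and 7507, 9954 and 7814 in FOLFIRINOX (log2 difference −0.26 ± 0.29 SE, adjusted p = 0.548, 95% interval −0.89 to 0.37). Its vehicle libraries spread more widely than the treated ones and overlapped them, and leaving out vehicle P19 alone gave −0.64 with adjusted p = 0.0331. The annotation places 380 exonic bases of ACTA2, 12.8% of its exons, over exons of FAS on the opposite strand. FAS, a death receptor gene, had 4341, 3334 and 5074 reads in vehicle and 24709, 16715 and 25402 in FOLFIRINOX. The sources used here do not give the strand setting of the counting, and the part of FAS reads in the ACTA2 counts was not tested.

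Of 7 genes that keep monomers and filament ends in turnover, PFN1, CFL1 and CAPZB fell and their relatives were not called. Among all genes tested, 12.2% fell. PFN1, the main profilin, which delivers actin monomers to growing ends, fell from 88520.1, 73265 and 66309.7 to 43455, 46859 and 40114 reads (log2 difference −0.80 ± 0.16 SE, adjusted p = 0.0046), without overlap. Its paralog PFN2 had 49594, 44043 and 47462 in vehicle and 56159, 49146 and 47897 in FOLFIRINOX (log2 difference 0.12 ± 0.15 SE, adjusted p = 0.600, interval −0.20 to 0.44). CFL1, the non-muscle cofilin that severs old filaments, fell from 75494, 63709 and 55166 to 41081, 45734 and 39824 (log2 difference −0.61 ± 0.16 SE, adjusted p = 0.0196). CFL1 did not pass with FOLFIRINOX P19 left out (adjusted p = 0.0814), vehicle P15 left out (0.0573) or vehicle P14 left out (0.0634), nor with the P14 pair removed (0.0824), nor under quantile normalization (0.0676). CFL2, the muscle-type cofilin, and DSTN, destrin, had log2 differences of 0.00 (interval −0.46 to 0.47) and −0.07 (−0.49 to 0.35). For CFL2 the P15 library was the lowest of each group, at 24477 and 24754 reads, and the P14 and P19 libraries of both groups lay between 36000.4 and 37044. The beta subunit of the capping protein that blocks barbed ends, CAPZB, fell from 44005, 44532 and 41011 to 25374, 30931 and 28074 (log2 difference −0.62 ± 0.15 SE, adjusted p = 0.0109). Its partner subunit CAPZA1 had 49756, 29519 and 47337 and 55884, 39446 and 51861 (log2 difference 0.24 ± 0.22 SE, adjusted p = 0.468). CAPZA1 too was lowest in P15 in each group, and higher in FOLFIRINOX within every P number.

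Of 8 genes that start or elongate filaments 3 fell, and with pairing 6, with the largest fall of the 47 in DIAPH3. Beside this, 12.2% of all genes tested fell, and 21.8% with pairing. DIAPH3, a formin that builds unbranched filaments and acts at the cytokinetic ring, fell from 5603, 7571 and 10325 to 884, 1141 and 1610.0 reads (log2 difference −2.69 ± 0.26 SE, adjusted p = 3.2e-05, 6.46-fold lower). Its difference within P14, P15 and P19 was −2.66, −2.73 and −2.68 on the log2 scale, nearly the same in each, while the level was lowest in P14 and highest in P19 in both groups. DIAPH1, a formin of interphase stress fibers, fell from 20885, 24769.6 and 20795 to 12854, 14857 and 14855 (log2 difference −0.64 ± 0.15 SE, adjusted p = 0.0112), and its adjusted p was 0.0579 without vehicle P15. Of the 6 Arp2/3 subunits on the list, ARPC4 was the one called and fell from 6801, 5361 and 5425 to 3109, 3641 and 3027 (log2 difference −0.84 ± 0.17 SE, adjusted p = 0.0042). ARPC1A, ARPC1B, ARPC2, ARPC3 and ARPC5 had log2 differences of −0.34, −0.45, −0.14, −0.29 and −0.09 and were not called. With pairing by P number ARPC1A, ARPC1B and ARPC3 were lower (adjusted p = 0.0180, 0.0136 and 0.0286), and ARPC5 was too once GC trends were also removed (0.0465). With edgeR on the recovered reads ARPC1B was lower without pairing (adjusted p = 0.0482). ARPC1B stood at 993, 871 and 897 reads in vehicle and 661, 678 and 685 in FOLFIRINOX, the lowest of the 47 per kb of exon in vehicle. In GENCODE 29, 32.4% of its exonic bases and 58.4% of those of ARPC1A also belong to the read-through gene AC004922.1, which had at most 8.20 reads. Since the way reads in shared exons were assigned is not known here, the levels of both subunits are uncertain. ARPC4 shares 541 exonic bases with the read-through gene ARPC4-TTLL3, which had at most 0.935 reads. Another 479, 13.3% of its exons, lie over exons of TADA3 on the opposite strand. TADA3 had 7804, 6550 and 5640 reads in vehicle and 5179, 6212 and 5328 in FOLFIRINOX. The part of TADA3 reads in the ARPC4 counts was not tested.

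Tropomyosins, the coiled coils that run along filaments and set which partners bind, were called lower for TPM3 and TPM4 and not for TPM1 and TPM2. TPM4 fell from 251345, 277447 and 289265 to 206703, 178441 and 184348 reads (log2 difference −0.52 ± 0.15 SE, adjusted p = 0.0261) and TPM3 from 87727, 82281 and 94417 to 67828, 62182 and 65232 (log2 difference −0.44 ± 0.14 SE, adjusted p = 0.0467). Both calls were close to the threshold. TPM3 did not pass with any 1 library left out (adjusted p 0.0626 to 0.152), nor without both P14 libraries (0.0642), nor with a pseudocount of 8 (0.0516), nor under common-total or quantile scaling (0.137 and 0.390). TPM4 was not called without FOLFIRINOX P15 (0.105), FOLFIRINOX P19 (0.1), vehicle P15 (0.0898) or vehicle P19 (0.0677), nor under common-total or quantile scaling (0.0663 and 0.0966). TPM1, which has isoforms on stress fibers and in muscle, had 126111, 120932 and 122221 reads in vehicle and 137964, 118384 and 124417 in FOLFIRINOX, a log2 difference of 0.04 (interval −0.27 to 0.36). TPM2, another tropomyosin of stress fibers and muscle, had 133251, 103317 and 99185 and 125244, 125377 and 116050.2, a log2 difference of 0.14 (−0.21 to 0.49), and its groups overlapped as well. TPM2 was called higher with pairing and GC trends removed together (adjusted p = 0.0171).

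Myosin II is built from heavy chains that carry the motor and light chains that control it. MYH10, the heavy chain of non-muscle myosin IIB, fell from 5093, 7946 and 7069 to 3329, 3487 and 3895 reads (log2 difference −0.89 ± 0.19 SE, adjusted p = 0.0064). MYH9, the IIA heavy chain, fell from 238897, 261907 and 172533 to 133064, 166907 and 148861 (log2 difference −0.57 ± 0.19 SE, adjusted p = 0.0472). The MYH9 difference passed with vehicle P19 left out, but not on leaving out any of the other 5 libraries (adjusted p 0.0665 to 0.177), nor without both P14 libraries (0.200), with GC trends removed (0.0503) or under common-total or quantile scaling (0.0945 and 0.0962). MYLK, the kinase that switches myosin on by phosphorylating its regulatory light chain, was the member called higher. It had 5455, 6372 and 5785 reads in vehicle and 7973, 9456 and 9178 in FOLFIRINOX (log2 difference 0.59 ± 0.15 SE, adjusted p = 0.0165, 1.51-fold), with every treated library above every vehicle library. Its difference did not pass without FOLFIRINOX P15 (adjusted p = 0.0697), FOLFIRINOX P19 (0.0818) or vehicle P14 (0.0522). The regulatory light chains MYL9, MYL12A and MYL12B had log2 differences of −0.17, −0.02 and 0.36, and the essential light chain MYL6 −0.37, none of them called. MYL6 had 145899, 83652 and 86914 reads in vehicle and 99249, 73439 and 67656 in FOLFIRINOX, with P14 the highest of each group. With pairing, MYL12B was higher (adjusted p = 0.0056) and MYL6 lower (0.0049). MYL12B had 53089, 32089.6 and 42095 reads in vehicle and 73959, 41012 and 49753 in FOLFIRINOX, higher within each P number but with P14 the highest library of both groups. MYL12A and MYL12B are neighbouring genes for near-identical proteins and share 6.44% and 6.33% of their 50-base stretches, so the split of reads between them is uncertain.

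None of the 5 crosslinker genes was called by limma without pairing, and with it 3 were lower and 2 higher. Over all genes tested, 12.2% were lower and 11.4% higher without pairing, and 21.8% and 22.3% with it. FLNA, the ubiquitous filamin that crosslinks filaments into a mesh, had 177981, 197047 and 119998 reads in vehicle and 98842, 131842 and 111832 in FOLFIRINOX (log2 difference −0.51 ± 0.20 SE, adjusted p = 0.0961, and 5.7e-04 with pairing). FLNC, the muscle-type filamin, had 24945, 27174 and 19064 in vehicle and 28102, 37478 and 34814 in FOLFIRINOX (log2 difference 0.50 ± 0.18 SE, adjusted p = 0.0693, and 6.9e-04 with pairing), and its groups did not overlap. The FLNC difference passed without FOLFIRINOX P14 (adjusted p = 0.0441), and that of FLNA without vehicle P19 (0.0160). LIMA1, a LIM protein that stabilizes bundles, had 23296, 27286 and 30360.3 in vehicle and 38267, 33204 and 36622 in FOLFIRINOX (log2 difference 0.42 ± 0.16 SE, adjusted p = 0.0734, 0.0022 with pairing, and 0.0469 without vehicle P19). Every FOLFIRINOX library of LIMA1 was above every vehicle library. Under common-total scaling FLNC and LIMA1 were called higher (adjusted p = 0.0335 and 0.0332), as under quantile normalization (0.0498 and 0.0272), and FLNC also with GC trends removed (0.0035). The alpha-actinins ACTN1 and ACTN4, which space the filaments of stress fibers, differed by −0.35 and −0.35 (adjusted p = 0.155 and 0.176, and 0.0094 and 0.0113 with pairing). The pairing call of ACTN4 was lost when each library's GC trend was also removed (adjusted p = 0.0572).

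Transgelins, calponins and caldesmon bind along filaments, and TAGLN, CNN1 and CALD1 are known as markers of contractile cells. TAGLN2, the widely expressed transgelin, fell from 41355, 35568 and 32464 to 18966, 20364 and 17978 reads (log2 difference −0.93 ± 0.15 SE, adjusted p = 0.0015), with no overlap. TAGLN, the smooth muscle transgelin SM22, had 92995, 68999 and 54415 in vehicle and 64305, 70266 and 58144 in FOLFIRINOX (log2 difference −0.14 ± 0.20 SE, adjusted p = 0.656, interval −0.57 to 0.30). CNN1 and CNN2 fell, CNN1 from 1069.5, 1209 and 731 to 403, 574 and 390.4 (log2 difference −1.13 ± 0.24 SE, adjusted p = 0.0061) and CNN2 from 27634, 27717 and 21001 to 11135, 15183 and 13266 (log2 difference −0.95 ± 0.18 SE, adjusted p = 0.0032). CNN1 is the smooth muscle calponin, and with the P14 pair removed its adjusted p was 0.0734. CNN3, the acidic calponin, differed by −0.06 (interval −0.39 to 0.28). CALD1, caldesmon, had 103999, 101325 and 128145 and 124489.9, 112777 and 157773 (log2 difference 0.24 ± 0.17 SE, adjusted p = 0.356, 0.0577 with pairing).

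At focal adhesions, where stress fibers are anchored to integrins, the LIM proteins ZYX and PDLIM7 were called and the linkers TLN1, VCL and PXN were not, and the difference between those sets was not tested. ZYX, zyxin, which moves to strained stress fibers, fell from 28565, 26997 and 19032 to 11516, 16049 and 12865 reads (log2 difference −0.88 ± 0.20 SE, adjusted p = 0.0085). PDLIM7, a PDZ and LIM scaffold on actin, fell from 9978, 8610.2 and 6123 to 3769, 5066 and 3637 (log2 difference −0.97 ± 0.21 SE, adjusted p = 0.0071). Neither overlapped between groups, and neither passed when the P14 pair was removed (adjusted p = 0.0836 and 0.0787). The integrin linkers TLN1 and VCL, talin and vinculin, differed by −0.25 and −0.25 (adjusted p = 0.361 and 0.260). PXN, the adaptor paxillin, differed by −0.42 (adjusted p = 0.140, and 0.0367 without vehicle P19). With pairing, VCL and PXN were lower (adjusted p = 0.0486 and 0.0058) and TLN1 was not called (0.0689).

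SRF, the transcription factor of the actin system, had 4147, 4165 and 3224 reads in vehicle and 2687, 3479 and 2919 in FOLFIRINOX (log2 difference −0.34 ± 0.17 SE, adjusted p = 0.185, and 0.0254 with pairing). MRTFA, its actin-sensing coactivator, had 2172, 2278 and 1466 and 1092, 1691 and 1356 (log2 difference −0.51 ± 0.22 SE, adjusted p = 0.124, 0.0048 with pairing, and 0.0299 without vehicle P19). In both genes vehicle P19 was the lowest of its group and lay within the range of the treated libraries. The paired SRF call was lost when GC trends were removed too (adjusted p = 0.0574). Of 6 other SRF cofactor genes none was called by limma without pairing, where 12.2% of all genes tested were lower and 11.4% higher. MRTFB, MYOCD, ELK1, ELK3, ELK4 and SCAI, which bind SRF or hold back its coactivators, had log2 differences of −0.18, −0.33, −0.21, 0.38, 0.03 and −0.01. ELK3, a ternary complex factor, was higher with pairing (adjusted p = 0.0042).

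**Figure D2:**
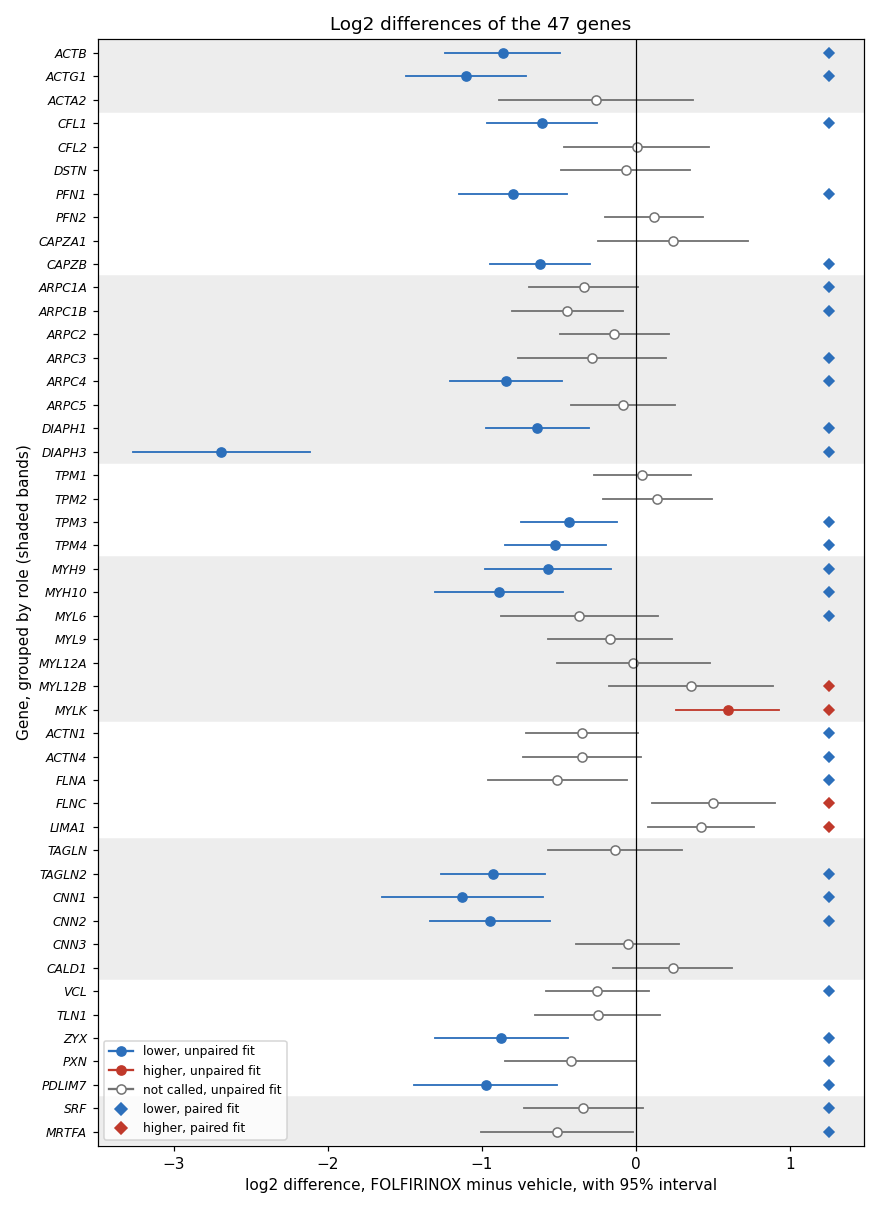
Log2 difference between FOLFIRINOX and vehicle (x axis) with its 95% interval from the unpaired fit for each of the 47 genes (y axis, grouped by role); filled points were called, and diamonds at the right mark genes called when libraries were paired by P number. DIAPH3 stands farthest left at −2.69, and MYLK is the filled point on the right at 0.59.

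Ratios of related genes within a library are free of any single scaling factor per library, and 18 such pairs were compared. For 11 pairs the groups did not overlap, 7 higher and 4 lower in FOLFIRINOX. Each of these had an exact two-sided permutation p of 0.1, the smallest that 3 against 3 can give. After adjustment over the 18 pairs it was 0.164, so no pair could pass. The pairs were chosen with earlier results of these data known, and several set a called member against an uncalled one. No share was computed for other pairs of genes, so the count only describes these 18. The FLNC to FLNA log2 ratio was −2.83, −2.86 and −2.65 in vehicle and −1.81, −1.81 and −1.68 in FOLFIRINOX, a 2.02-fold shift toward the muscle-type filamin. The shift was 1.02, 1.04 and 0.97 within P14, P15 and P19. The PFN2 to PFN1 log2 ratio was −0.84, −0.73 and −0.48 in vehicle and 0.37, 0.07 and 0.26 in FOLFIRINOX, a 1.89-fold shift toward PFN2. The TAGLN to TAGLN2 log2 ratio had a mean of 0.96 ± 0.21 in vehicle and 1.75 ± 0.05 in FOLFIRINOX. Among tropomyosins the TPM1 to TPM4 log2 ratio was −0.99, −1.20 and −1.24 in vehicle and −0.58, −0.59 and −0.57 in FOLFIRINOX. The 3 FOLFIRINOX libraries nearly coincided. The log2 ratio of ACTA2 to ACTB was higher by 0.61, that of MYL12B to MYL12A by 0.37 and that of TPM2 to TPM4 by 0.66. The log2 ratio of DIAPH3 to DIAPH1 differed by −2.05, and those of CNN1 and CNN2 to CNN3 by −1.07 and −0.89. The ACTN1 to ACTN4 log2 ratio was 0.23 ± 0.08 in vehicle and 0.23 ± 0.09 in FOLFIRINOX. A ratio shows unequal change, not which gene moved.

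**Figure D3:**
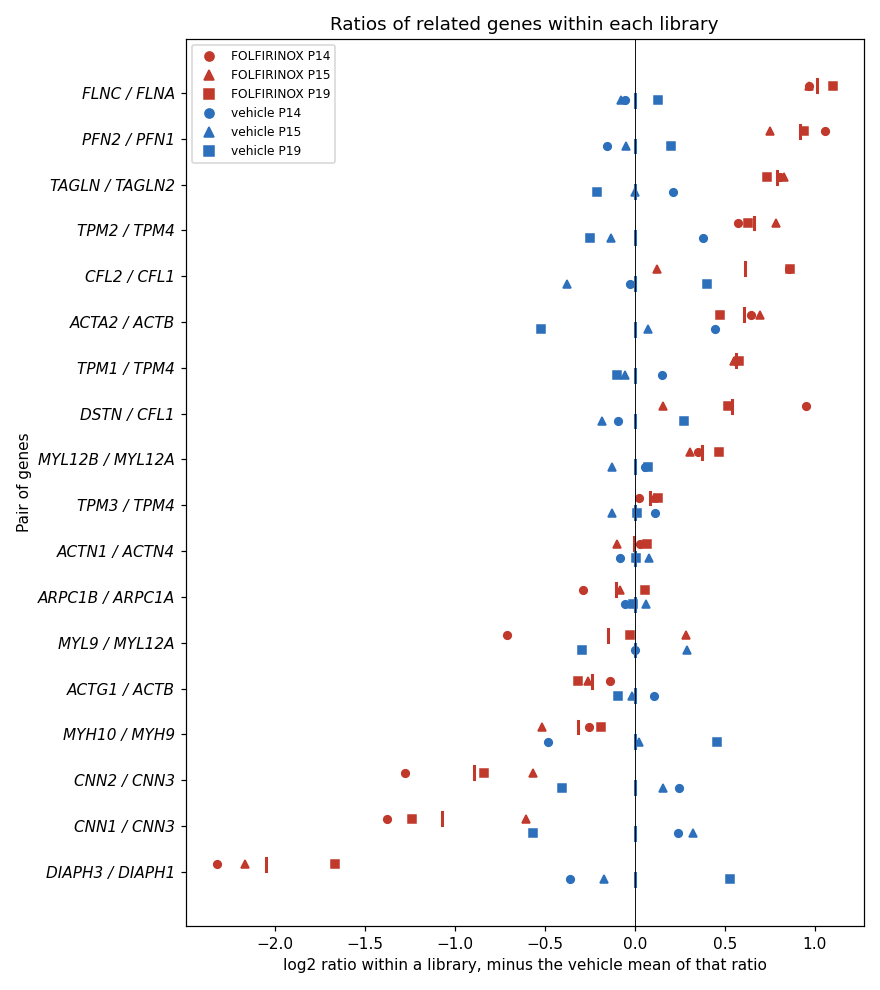
Log2 ratio of 2 related genes in each library minus the vehicle mean of that ratio (x axis) for 18 pairs (y axis); points are libraries (blue vehicle, red FOLFIRINOX, shape by P number) and short bars are group means. Red points lie to the right of all blue points for FLNC over FLNA and PFN2 over PFN1, and far to the left for DIAPH3 over DIAPH1.

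Per kb of exon, ACTB and ACTG1 were the most abundant members in both groups. ACTB had 198139 normalized reads per kb in vehicle and 108635 in FOLFIRINOX, and ACTG1 135857 and 62614. PFN1 came next in vehicle at 38264 per kb and was the eighth in FOLFIRINOX at 21880.2, behind TPM2, DSTN, MYL12B, MYL9 and TPM4. TPM2 had 34457 per kb in vehicle and 37630.4 in FOLFIRINOX. These levels use the union of annotated exons, which is 22.2 kb for MYLK and 1.93 kb for MYL12B, so a gene with long exons that these cells do not use reads low.

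Differences were not the same in every P number. The median log2 difference of the 47 genes was −0.56 within P14, −0.31 within P15 and −0.21 within P19. In all, 28 members were lower in FOLFIRINOX within every P number and 7 were higher in each, where 31.5% and 33.7% of all genes tested were. The 7 were PFN2, CAPZA1, MYL12B, MYLK, FLNC, LIMA1 and CALD1. Of the 28, 19 had their most negative difference in P14, while 45.7% of the genes that were lower within every P number did so over the whole table. ZYX, for example, differed by −1.31, −0.75 and −0.56 within P14, P15 and P19, and ACTA2 by −0.97, −0.20 and 0.40. DIAPH3 and MYLK differed by −2.66 and 0.55 within P14 and by −2.68 and 0.67 within P19. Without both P14 libraries 11 members were lower and 1 higher, where 7.89% lower and 6.08% higher of all genes tested were called, also fewer than with all libraries. Beside this, the share of reads from mitochondrial ribosomal RNA was 0.864%, 0.563% and 0.552% in vehicle and 2.74%, 1.18% and 1.23% in FOLFIRINOX, highest in P14 of each group, and its part in the result was not tested. Members that fell had a median GC content of 56.0% in their longest transcript, members not called 49.9% and all genes tested 47.2%. With each library's GC trend removed, 16 members were lower and 2 higher, against 15.4% lower and 14.5% higher over all genes tested. With GC trends removed and pairing, 27 were lower and 5 higher, against 25.5% lower and 25.2% higher.

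**Figure D4:**
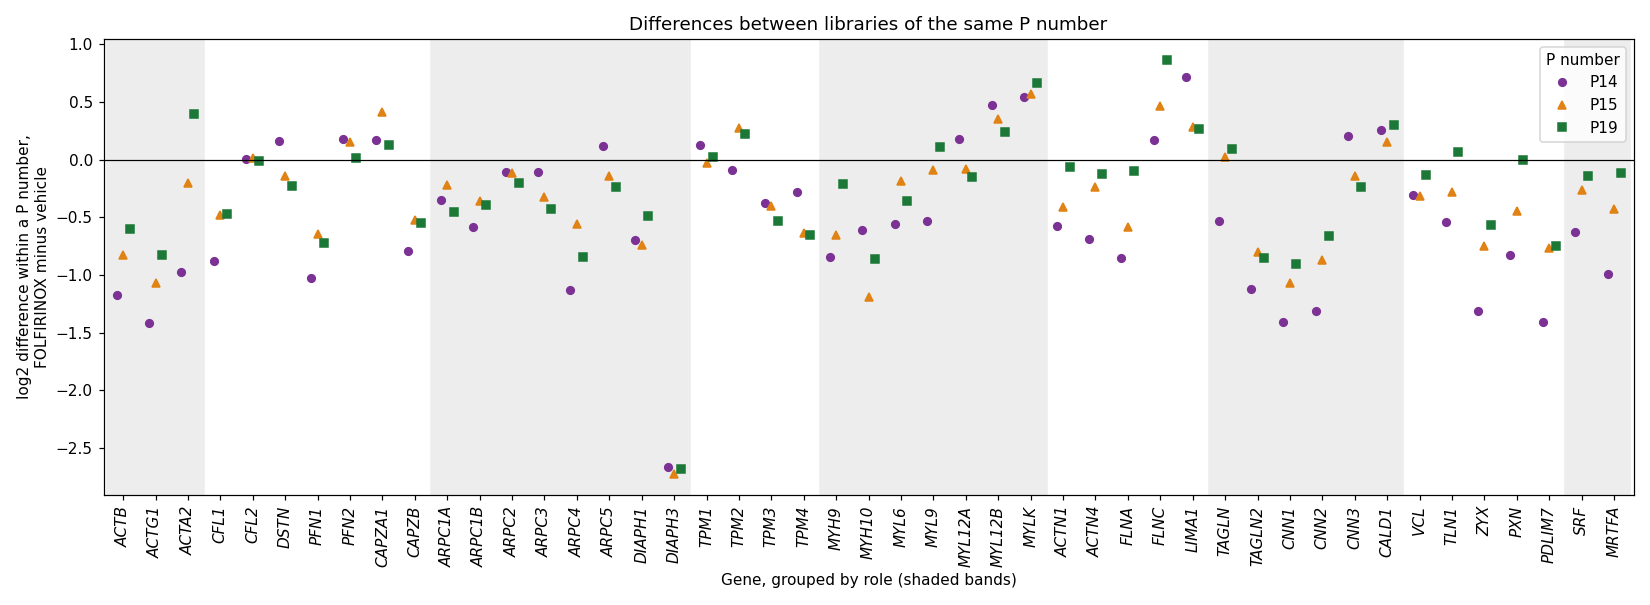
Log2 difference between the FOLFIRINOX and the vehicle library of the same P number (y axis) for each gene (x axis, grouped by role); purple circles are P14, orange triangles P15 and green squares P19. The P14 point is the lowest for 19 of the 28 genes that were lower in all 3, and the DIAPH3 points nearly coincide near −2.69.

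Neighbouring genes of the actin system, from lists drawn up for comparison with earlier results known, included genes that rose and genes that fell. Beside the counts below, 12.2% of all genes tested were called lower and 11.4% higher, and 21.8% and 22.3% with pairing. Of 17 other nucleation and elongation genes tested 6 fell and 0 rose (8 and 1 with pairing), led by the formins DIAPH2 (−1.49) and FHOD1 (−1.01). Of 16 other monomer, capping and severing genes 4 fell and 1 rose (7 and 5 with pairing), with twinfilin TWF2 at −0.78, the cofilin partner WDR1 at −0.59 and the pointed-end cap TMOD2 at 0.73. Of 29 other crosslinker, LIM and adhesion genes 8 fell and 3 rose (14 and 6 with pairing). PDLIM3 fell from 497 ± 42.7 to 98.5 ± 13.7 reads and SORBS2 by 1.46 on the log2 scale, while the focal adhesion genes TES and FHL2 rose by 0.79 and 0.66. Of the 9 muscle isoforms 4 passed the filter: ACTG2, the enteric smooth muscle actin, fell from 1028, 889 and 465 to 115, 226 and 131, LMOD1 fell by 0.58, and SYNPO2, which bundles actin in muscle, rose from 7703, 8969 and 8139.6 to 20017, 22439.6 and 23588.

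All 6 genes listed for cytokinesis fell, where 12.2% of all genes tested were called lower. DIAPH3 also acts in that step, at the cytokinetic ring. ANLN, the anillin scaffold that links actin and myosin in the ring, fell from 19055, 18660.2 and 33554 to 525, 517 and 753 reads (log2 difference −5.28 ± 0.25 SE, adjusted p = 1.1e-07). In vehicle its highest library was P19, as for DIAPH3. PRC1, which bundles microtubules at the cell's midline, differed by −5.92 (148, 131 and 189.7 reads in vehicle and 0.00, 1.97 and 4.67 in FOLFIRINOX).

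Some members share sequence with other genes, which bears on how exactly their reads could be assigned. For 19 of the 47, at least 5% of the 50-base stretches of the longest coding transcript also occurred in a transcript of another GENCODE 29 gene. ACTB shared 10.3% with 18 other genes, among them processed pseudogenes such as ACTBP2, ACTG1 3.58% with 10, and PFN1 13.8% with 2. TPM4 shared 36.2%, 19.1% with a processed pseudogene, and TPM1 42.1% with its antisense gene TPM1-AS. DIAPH1, MYH10, CNN1 and PDLIM7, which fell, shared 0.32% or less. Exons of 29 members overlapped those of another annotated gene.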

How the data were processed

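Polyadenylated RNA (NEB enrichment) was made into KAPA RNA HyperPrep libraries, per the labels' protocols. The submitters' processing notes name FastQC 0.12.1, STAR 2.7.11b, featureCounts 2.0.6, DESeq2 and the build GRCh38. Annotation release and strandedness are not stated in what was used here. What the authors deposited is 1 normalized signal per gene and library. Every value (100%, within 0.001) was a whole multiple of the smallest of its column, which gave back the reads.

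Column names give the group, and the P number is in no label. Deviations from group means correlated at 0.257, 0.282 and 0.288 for libraries that share a P number, and at −0.26 to −0.03 for others. Deviations within a group sum to 0, so the negative values follow in part from the positive ones. The numbers were taken as pairs from these same data. The pairing as a replicate block is given beside the unpaired test. Replicates differed by more than sampling noise (chi-square per degree of freedom 76.0 to 231).

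Log2(value + 1) was tested with limma 3.58.1 (trended, treatment only) in 17951 genes at 10 or more in 3 libraries with Benjamini-Hochberg adjustment over those genes. The added 1 makes changes of low genes look smaller than they are. The standard error of a log2 difference had a median of 0.226. Variations covered pseudocount (0.5, 8), filter (none, 50), scaling (TMM, common total, quantile), trend, libraries left out, block and GC trend (GC known for 96.5% of genes). On the recovered reads edgeR 4.0.16 called 1820 genes higher and 2389 lower, and DESeq2 1.42.0 2345 and 2449. The limma and edgeR steps were tested on simulated data. Gene positions, lengths and GC come from GENCODE 29 and promoters from RefSeq. The comparison columns of the deposited table were not used here, and some genes used as references and 1 of the related lists are not reported here.

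The members, related lists and tests were chosen with earlier results of these data known. Named genes are the members, the SRF cofactors and, per related list and direction, the 2 called genes with the largest difference that reach a mean of 50.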

Additional observations from a re-analysis of the deposited data

How the results depend on the processing

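The number of members lower in FOLFIRINOX, 17, was 11 without both P14 libraries, 28 with the replicate block and 27 with the block and GC trends removed, 12 to 19 with 1 library left out, and 12 to 18 under the other alternatives. The number higher, 1, was 3 under common-total scaling and under quantile normalization, 2 with GC trends removed, 4 with the block, 5 with the block and GC trends removed, and 0 to 2 when 1 library was left out. No called member changed direction under any of 20 alternatives, and 8 of the 18 (ACTG1, PFN1, CAPZB, ARPC4, DIAPH3, MYH10, TAGLN2 and CNN2) kept their call under all 20. ACTB, CFL1, TPM3, TPM4 and MYH9 lost their calls with no filter on low values (adjusted p = 0.0750, 0.0588, 0.184, 0.201 and 0.180), where 32997 genes were tested, and the last 4 of them without the trend (0.0596, 0.0909, 0.0615 and 0.112). The block added 14 calls and removed none.

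10 members that were not called changed sign, none to a called value. Log2 differences under quantile normalization were 0.14 for DSTN, 0.16 for ARPC2, 0.11 for ARPC5, 0.10 for MYL9, 0.23 for MYL12A, 0.10 for TAGLN and 0.084 for CNN3. Under common-total scaling they were 0.042 for DSTN, 0.023 for ARPC5, 0.093 for MYL12A and 0.055 for CNN3. Without both P14 libraries they were 0.10 for ACTA2, −0.0025 for TPM1, 0.013 for MYL9 and 0.061 for TAGLN. With GC trends removed, alone or with the block, CFL2 was at −0.14 and TAGLN at 0.0082. CFL2 was at −0.034 with TMM and with edgeR, and MYL12A at 0.016 with DESeq2. Leaving out 1 library gave −0.64 to 0.019 for ACTA2, −0.19 to 0.19 for CFL2, −0.25 to 0.067 for DSTN, −0.020 to 0.090 for TPM1, −0.27 to 0.14 for MYL12A, −0.32 to 0.064 for TAGLN and −0.13 to 0.015 for CNN3, and for the ratios −0.044 to 0.046 for ACTN1 over ACTN4 and −0.37 to 0.13 for MYL9 over MYL12A. The cause of these changes was not tested. All members had at least 390.4 normalized reads in every library, so none was near the limit of detection.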

Other observations

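ACTB is widely used to scale qPCR and blots, so its fall was set beside 9 other genes used in that way, a list drawn up after the data were seen. Without pairing, ACTB, RPLP0, HPRT1 and PGK1 were called lower, with log2 differences of −0.87, −0.74, −0.72 and −0.59 (limma adjusted p = 0.0042, 0.0467, 0.0345 and 0.0374). With pairing 8 of these 10 were lower. Over all genes tested, 12.2% were called lower without pairing and 21.8% with it. SDHA and TBP were called in neither fit. SDHA averaged 799 ± 40.5 normalized reads in FOLFIRINOX and 798 ± 12.8 in vehicle (log2 difference 0.0012, 95% interval −0.36 to 0.36), and TBP 1318 ± 127 and 1504 ± 21.2 (−0.19, −0.55 to 0.16). GAPDH averaged 286199 ± 47189 and 384434 ± 92274 (−0.41, adjusted p = 0.173, and 0.0017 with pairing). Scaled to ACTB, a gene with equal normalized reads in both groups would read 1.82-fold higher after FOLFIRINOX.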
